A study of Mus musculus with 50 samples.

Results

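The genes described here are the amino acid transporters of 7 solute carrier families, taken as every gene whose symbol in the count files is Slc1, Slc3, Slc6, Slc7, Slc36, Slc38 or Slc43 followed by the letter a and a number. This rule found 61 of the 24984 genes, with 7 members of Slc1, 2 of Slc3, 19 of Slc6, 15 of Slc7, 4 of Slc36, 11 of Slc38 and 3 of Slc43. RNA-seq was available for 38 libraries in 10 groups of C57BL/6 mice or their cells. Untreated young mice (2.5 months old) and untreated old mice (23 to 25 months) gave kidney and liver, with 4 libraries a group. Mice of 20 to 21 months that received the solvent DMSO or the treatment named 3C also gave kidney and liver, again with 4 libraries a group. Skin fibroblasts named P9 received DMSO or 3C, with 3 libraries a group. Neither the meaning of 3C nor that of P9 was given in the sources used here. The methods of the study give female sex for the untreated young and old mice. They do not describe the mice that received DMSO or 3C, or the fibroblasts. ATAC-seq, which maps the chromatin that a transposase can reach, covered young and old kidney and liver with 3 libraries a group. Replicates are separate samples by their labels, so the p-values measure the spread between these samples.

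Amino acids cannot cross a membrane on their own, and each tissue carries its own set of carriers. In the kidney, the proximal tubule reclaims filtered amino acids through carriers on its apical face and passes them to the blood through exchangers on its basolateral face. Slc3 proteins are heavy chains that bring light chains of the Slc7 family to the membrane: Slc3a1 pairs with Slc7a9 in the apical cystine carrier that is lost in cystinuria, and Slc3a2 pairs with Slc7a5, Slc7a7 and Slc7a8. Hepatocytes take up and release glutamine, alanine and cationic amino acids through Slc38 and Slc7 members. Dividing cells in culture rely on Slc1a5 and Slc7a5, which supply glutamine and leucine.

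RefSeq promoter windows (GRCm38.p6, the 250 bases before a start site) were found for 43 of the 61 members, which had 64 windows. Motifs of 4 factors were sought on both strands in all 32817 windows. The AP-1 motif TGANTCA was in 6.75% of all windows and in 9 of the 64 member windows. The ATF4 composite motif TGATGNAA was in 3.45% of all windows and in 4 member windows, the HNF4 core CAAAGTCCA in 0.384% and in 1 member window, and the palindromic HNF1 motif in 0.00914% and in no member window. The 3 windows printed here hold such a motif, which is in capitals. They belong to Slc3a1 and Slc6a12, which passed in age comparisons, and to Slc7a11, described below for its ATAC-seq peaks. Windows of other members with a motif, among them Slc7a7, are not printed. Slc3a1 (chr17:85028097-85028346, plus strand) held TGAGTCA 140 to 134 bases before the start and CAAAGTCCA 39 to 31 bases before it. Slc6a12 (chr6:121342324-121342573, plus strand) held TGATTCA 58 to 52 bases before the start. Further windows were found for Slc6a12 downstream of this one, and none of them held a motif. Slc7a11 (chr3:50443614-50443863, minus strand) held TGATGCAA 66 to 59 bases before the start and its reverse complement TTGCATCA 47 to 40 bases before it.
Slc3a1: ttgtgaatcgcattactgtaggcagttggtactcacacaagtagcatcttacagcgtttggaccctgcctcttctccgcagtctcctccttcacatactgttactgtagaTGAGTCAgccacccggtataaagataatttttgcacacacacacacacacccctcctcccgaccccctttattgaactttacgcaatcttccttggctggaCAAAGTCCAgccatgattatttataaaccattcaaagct
Slc6a12: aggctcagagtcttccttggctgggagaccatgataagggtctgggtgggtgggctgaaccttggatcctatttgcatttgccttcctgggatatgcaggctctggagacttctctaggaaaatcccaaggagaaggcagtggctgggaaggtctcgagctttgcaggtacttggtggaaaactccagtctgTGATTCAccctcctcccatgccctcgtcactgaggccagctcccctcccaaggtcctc
Slc7a11: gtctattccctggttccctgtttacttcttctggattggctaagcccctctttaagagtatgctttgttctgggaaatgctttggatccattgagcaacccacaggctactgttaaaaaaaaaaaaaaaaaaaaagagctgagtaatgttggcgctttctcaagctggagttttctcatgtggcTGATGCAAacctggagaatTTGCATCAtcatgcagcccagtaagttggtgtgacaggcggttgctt
A match describes the letters of the window and does not show that a factor binds there.

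The libraries held 14238228 to 43704147 counts in genes. Proximal tubule markers, hepatocyte markers and fibroblast markers were high in the tissue each defines. Hepatocyte markers in old kidney replicate 2 reached 3.58% of their level in old liver, against 0.172% to 0.605% in the other old kidneys, and the age results of Slc6a12, Slc6a13 and Slc38a4 in kidney, members that are high in liver, are given with and without that library. The fibroblast libraries held reads of both Xist and Y-linked genes, whereas the kidney and liver libraries held Xist reads alone. The untreated series and the DMSO and 3C series were handled differently before counting, so their levels are set side by side here and were not tested against each other.

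The members formed 3 patterns of level, one for each tissue (plot of group means by family). On the TPM scale, which divides reads by transcript length and so allows genes to be compared, the 61 members summed to 4447 ± 445 TPM (SD, n = 4) in young kidney, 1948 ± 455 TPM (SD, n = 4) in young liver and 962 ± 103 TPM (SD, n = 3) in DMSO fibroblasts. A mean of at least 1 TPM was reached by 41 members in young kidney, 25 in young liver and 30 in DMSO fibroblasts. The share of all genes that reached it was not computed. TPM is a share of each library and leaves out the TMM factors that scale the tests below. Between young kidney and young liver these factors differed by 1.085 on the log2 scale, so the size of the gap between the sums depends on the scaling. In every group 15 members stayed under 1 TPM, among them Slc7a11, the cystine and glutamate exchanger, and several carriers of neurotransmitters in brain.

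**Figure D1:**
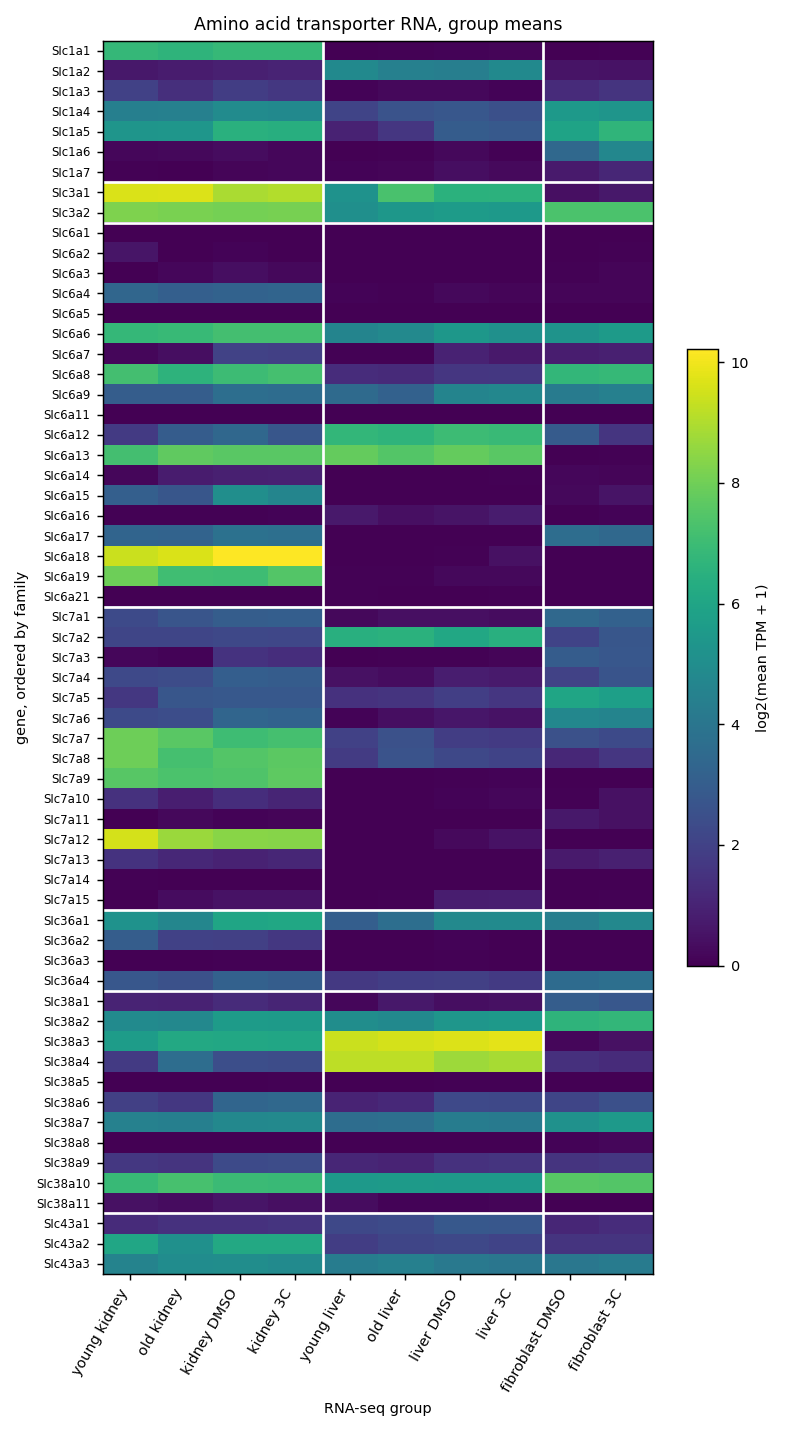
Heat map of the mean level of each member in each of the 10 RNA-seq groups, as log2(mean TPM + 1), with genes in rows by family and groups in columns. Slc3a1, Slc6a18 and Slc7a12 are bright in kidney, Slc38a3 and Slc38a4 in liver, and no fibroblast column reaches those levels.

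In young kidney the heaviest load of transcripts was carried by the apical and heteromeric carriers. Slc3a1 stood at 808 TPM, Slc7a12, a light chain of the heteromeric class, at 747 TPM and Slc6a18, an apical carrier of glycine and other neutral amino acids, at 669 TPM. Slc3a2 followed at 303 TPM. Slc7a7, the basolateral exchanger of cationic amino acids, had 250.2 TPM and Slc6a19, the main apical carrier of neutral amino acids, had 247 TPM. Slc7a8 had 245 TPM and Slc7a9 had 186 TPM. Of Slc1, the glutamate carrier Slc1a1 was highest at 112 TPM.

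In young liver the glutamine carrier Slc38a3 was highest of the members at 681 TPM and the neutral amino acid carrier Slc38a4 followed at 583 TPM. Slc6a13, a carrier of GABA and taurine, had 220.1 TPM, and Slc6a12, which carries betaine and GABA, had 107 TPM. Slc7a2, a carrier of arginine and other cationic amino acids, led its family at 87.4 TPM, and Slc1a2, a glutamate carrier, led Slc1 at 28.0 TPM. Within Slc3 the heavy chain Slc3a1 had 35.5 TPM and Slc3a2 had 32.7 TPM.

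DMSO fibroblasts were led by Slc38a10, whose substrates are less well defined, at 188 TPM, by Slc3a2 at 158 TPM and by the creatine carrier Slc6a8 at 107 TPM. Slc38a2, a carrier that cells raise when amino acids are short, had 99.7 TPM. Slc7a5 had 63.1 TPM and Slc1a5 had 59.9 TPM, while Slc3a1 had 0.34 TPM. Slc36a1, which exports amino acids from lysosomes together with protons, was the highest member of Slc36 in all 10 groups, from 7.32 TPM in young liver to 66.6 TPM in kidney with 3C.

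Kidney and liver were compared in the untreated young mice and again in the DMSO mice, using edgeR's quasi-likelihood test with Benjamini-Hochberg adjustment over all genes tested. A member was called when its adjusted p was under 0.05 and its fold change was above 2. In young mice 41 of the 61 members passed the filter on low counts. Of these, 24 were higher in kidney (25.7% of all 14057 genes tested were) and 11 were lower (16.9% of all genes). In DMSO mice 43 members passed, with 23 higher in kidney (26.6% of all 14981 genes) and 9 lower (15.7%). With library totals in place of the TMM factors, the split became 28 higher and 6 lower in young mice and 29 higher and 7 lower in DMSO mice, as the median of all genes moved from 0.08 to 1.16 and from 0.07 to 1.06 on the log2 scale. In the young comparison 12 of the members tested were under 0.5 CPM (a count scaled to the library total) in 1 of the groups, and in the DMSO comparison 11 were. They had passed the filter only through the tissue where they are high. All 12 and all 11 were called and are part of the counts above, so their calls are no separate result.

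The 35 members called in young mice and the 32 called in DMSO mice had 30 in common, which is 85.7% of the first list and 93.8% of the second, and these had the same direction in both. The same overlap was not computed over all genes, so these shares are not shown to be particular to the members. They comprised 21 members higher in kidney and 9 higher in liver (plot of the 2 sets of fold changes).

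**Figure D2:**
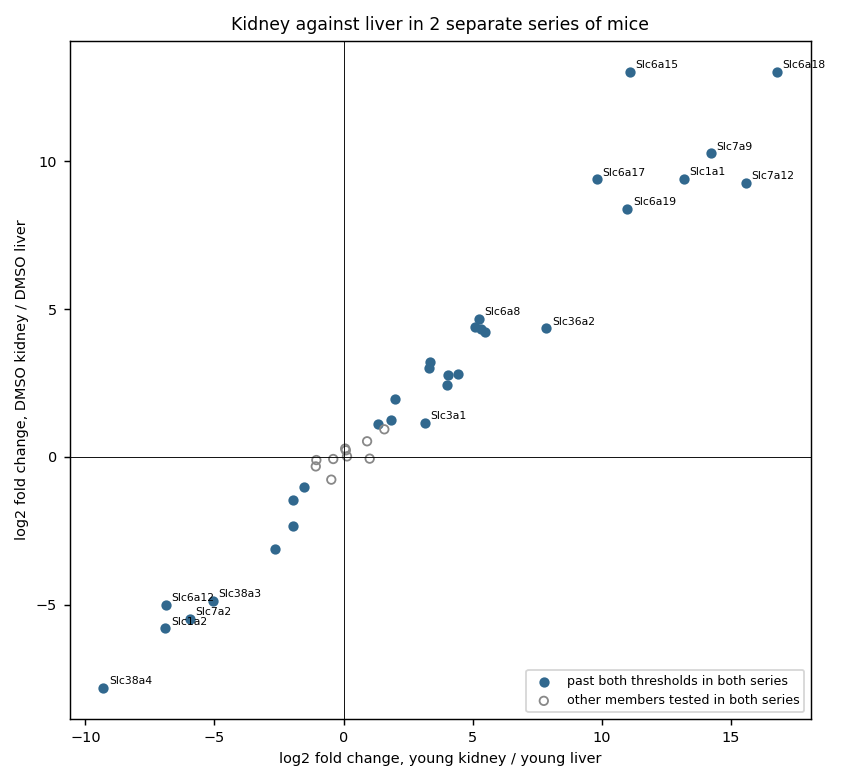
Log2 fold change of kidney over liver for each member tested in both series, in untreated young mice (x axis) and in DMSO mice (y axis); filled points passed both thresholds in both series. The 21 filled points higher in kidney and the 9 higher in liver lie in opposite corners, and fold changes of members without a count in liver depend on the fit.

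Carriers of the tubule, most of them apical, had a wide gap between the tissues. Slc6a18 was at 890, 965, 1079 and 1022 CPM in the young kidneys and at 0 counts in all 4 young livers. With library totals and a floor of 3 counts over the group, it was at least 28733-fold higher in kidney. By the same bound Slc7a12 was at least 12452-fold and Slc7a9 at least 4873-fold higher. The TMM factors of the 2 groups differed by 1.085 on the log2 scale, kidney minus liver, so bounds with these factors would be lower. Slc6a19 had 523, 440.3, 322 and 357 CPM in the young kidneys and at most 0.272 CPM in a young liver, with no overlap. It had 8 counts in all over the young livers and 23 over the DMSO livers, so no fold is given. In liver with 3C, replicate 4 carried 2.50 CPM of Slc6a18 and 1.05 CPM of Slc7a12, while the other 3 libraries had at most 0.0529 CPM of either. In that library 5 markers of the loop and distal tubule summed to 5.997 CPM, against 0 to 0.582 CPM in the other 3. The sum of the proximal tubule markers, 101.6 CPM, lay within the 73.3 to 103.9 CPM of the other 3. The part of kidney RNA in these values was not tested.

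Slc3a1 differed less between the tissues than these members. The young kidneys had 611, 628, 619 and 589 CPM and the young livers had 27.8, 32.4, 34.2 and 34.3 CPM, so the groups did not overlap. The log2 difference was 3.15 ± 0.15 in young mice (edgeR adjusted p = 3.7e-09) and 1.16 ± 0.11 in DMSO mice (edgeR adjusted p = 1.8e-06). Among the basolateral members, Slc7a7 was 34.0-fold, Slc7a8 40.4-fold and Slc43a2, an exporter of branched-chain and aromatic amino acids, 9.86-fold higher in young kidney. Slc6a8 was 37.4-fold higher in young kidney, and Slc1a5 had 50.4 to 56.5 CPM there against 1.21 to 1.98 CPM in young liver.

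The liver side was led by Slc38a4, with 1190, 1029, 828 and 910 CPM in young livers and 4.86, 3.34, 2.88 and 2.18 CPM in young kidneys. That is a log2 difference of -9.30 ± 0.28, kidney minus liver (edgeR adjusted p = 9.7e-11). Slc1a2 was 119-fold, Slc6a12 117-fold, Slc7a2 62.2-fold and Slc38a3 33.5-fold higher in young liver. The smaller differences depended on the scaling. With library totals Slc6a13 was 0.86 lower in kidney on the log2 scale in place of 1.94 in young mice, and Slc38a2 was 0.42 lower in place of 1.52, and neither was called in either series. Slc7a5 (-1.05 to 0.04) and Slc43a3 (-1.08 to 0.01), a carrier of purine bases, changed sign in young mice.

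DMSO fibroblasts differed from both tissues. Against DMSO kidney, 47 members were tested, of which 7 were higher in fibroblasts (22.8% of all 15437 genes) and 21 lower (32.4%). Of these 47 members, 16 were under 0.5 CPM in 1 of the groups and had passed the filter only through the other, and 15 of the 16 were called. Against DMSO liver, 36 members were tested, of which 15 were higher (28.2% of all 14500 genes) and 15 lower (29.8%), and with library totals 17 were higher and 10 lower. There 7 of the 36 were under 0.5 CPM in 1 group, and all 7 were called. Slc7a5 was at 56.5, 92.9 and 85.7 CPM in DMSO fibroblasts, at 5.77 to 9.03 CPM in DMSO kidneys and at 2.76 to 5.29 CPM in DMSO livers. In the fits with TMM factors Slc7a5 was 13.6-fold higher in fibroblasts than in kidney and 12.2-fold higher than in liver. The CPM values carry no such factors, and on that scale the larger gap was to liver. Slc1a6, a glutamate carrier best known from cerebellar neurons, was at 6.95, 7.18 and 7.78 CPM in DMSO fibroblasts, whereas all kidney and liver libraries of the DMSO groups had at most 0.273 CPM (13 counts over the kidneys and 10 over the livers). Slc6a13 had no count in the 3 DMSO fibroblast libraries. With library totals and the floor of 3 counts it was at least 3863-fold higher in DMSO kidney. The TMM factors, which differed by -0.293 on the log2 scale (fibroblasts minus kidney), would lower this bound.

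With age 6 members fell in kidney, among them carriers of both faces of the tubule, and 3 members of low level rose. Old kidney was compared with young kidney over 14495 genes, of which 42 were members. Slc6a12, Slc7a5 and Slc38a4 rose past both thresholds (5.68% of all genes tested did) and no member fell past both (0.407% of all genes did). By the adjusted p alone the same 3 members rose (8.15% of all genes) and 6 fell, namely Slc6a19, Slc7a8, Slc43a2, Slc7a12, Slc6a8 and Slc36a1 (3.36% of all genes). The median log2 fold change of the members tested was -0.06, beside 0.02 over all genes. All adjusted p-values of this comparison are from edgeR with Benjamini-Hochberg adjustment.

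Slc6a12 was at 3.06, 2.01, 2.53 and 1.85 CPM in young kidneys and at 5.02, 8.52, 9.65 and 5.97 CPM in old kidneys. The lowest old kidney exceeded the highest young kidney, and the log2 fold change was 1.61 ± 0.28 (SE), with adjusted p = 0.00559. Its level in liver was far higher, at 106 to 162 CPM in young livers and 86.3 to 144 CPM in old livers, with a log2 age change of -0.17 ± 0.21 and adjusted p = 0.826, and without old kidney replicate 2 the kidney change was 1.56 with adjusted p = 0.00932. In the renal medulla Slc6a12 takes up betaine, an osmolyte that protects cells from salt.

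Slc7a5 was at 3.33, 2.29, 1.97 and 3.13 CPM in young kidneys and at 6.55, 8.76, 3.57 and 9.999 CPM in old kidneys. The groups did not overlap, although old replicate 3 lay close to the young range, and the log2 fold change was 1.38 ± 0.31 with adjusted p = 0.0192. Adjusted p was 0.0707 without young replicate 2, 0.0658 without young replicate 3 and 0.0653 without old replicate 4.

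Slc38a4 was at 4.86, 3.34, 2.88 and 2.18 CPM in young kidneys and at 6.75, 40.6, 8.26 and 9.68 CPM in old kidneys. Old replicate 2, the library with the raised hepatocyte markers, was the high one, and the other 3 old libraries still lay above all young ones. The log2 fold change was 2.23 ± 0.55 with adjusted p = 0.0279, and without old replicate 2 it was 1.31 with adjusted p = 0.00988. With the replicate block, which sets libraries of the same number together, adjusted p was 0.0501, although young and old libraries of the same number are different mice. Without young replicate 2, 3 or 4 adjusted p was 0.0859, 0.0891 and 0.0536.

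Among the members that fell, Slc6a19 had the steadiest result. It was at 523, 440.3, 322 and 357 CPM in young kidneys and at 209.6, 317, 170.3 and 238 CPM in old kidneys. The highest old library lay just under the lowest young one, and the log2 fold change was -0.85 ± 0.18 with adjusted p = 0.0147. Slc6a8 was at 259, 269, 224 and 224 CPM in young kidneys and at 199, 180.1, 168 and 169 CPM in old kidneys, without overlap, and its log2 fold change was -0.47 ± 0.11 with adjusted p = 0.0231.

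For the other members that fell, the groups overlapped in range. Slc7a8 was at 503, 444, 323 and 359.9 CPM in young kidneys and at 246, 329, 226 and 229.7 CPM in old kidneys, with a log2 fold change of -0.69 ± 0.15 and adjusted p = 0.0186. Slc43a2 was at 271, 265, 171 and 153 CPM in young kidneys and at 106, 166, 86.1 and 109 CPM in old kidneys, with -0.91 ± 0.21 and adjusted p = 0.0218. In both genes old replicate 2 was the highest old library.
Slc7a12 was at 460.4, 434, 543 and 286 CPM in young kidneys and at 198, 382, 163 and 238 CPM in old kidneys, with -0.86 ± 0.24 and adjusted p = 0.0468. Without old replicate 2 the log2 fold changes of Slc7a12 and Slc43a2 were -1.11 and -1.09, past both thresholds. Slc36a1 was at 72.9, 77.2, 66.1 and 55.8 CPM in young kidneys and at 45.8, 58.5, 41.7 and 49.9 CPM in old kidneys, with -0.51 ± 0.11 and adjusted p = 0.0178. Leaving out young replicate 1, young replicate 2 or old replicate 4 took the adjusted p to 0.0526 to 0.0649 for Slc7a8, 0.0501 to 0.0673 for Slc36a1, 0.0616 to 0.0821 for Slc6a8 and 0.0622 to 0.0735 for Slc43a2, which was at 0.056 without old replicate 1. Slc7a12 was at 0.0942 to 0.13 without any 1 of young replicates 1, 2 and 3 and old replicates 1, 3 and 4.

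**Figure D3:**
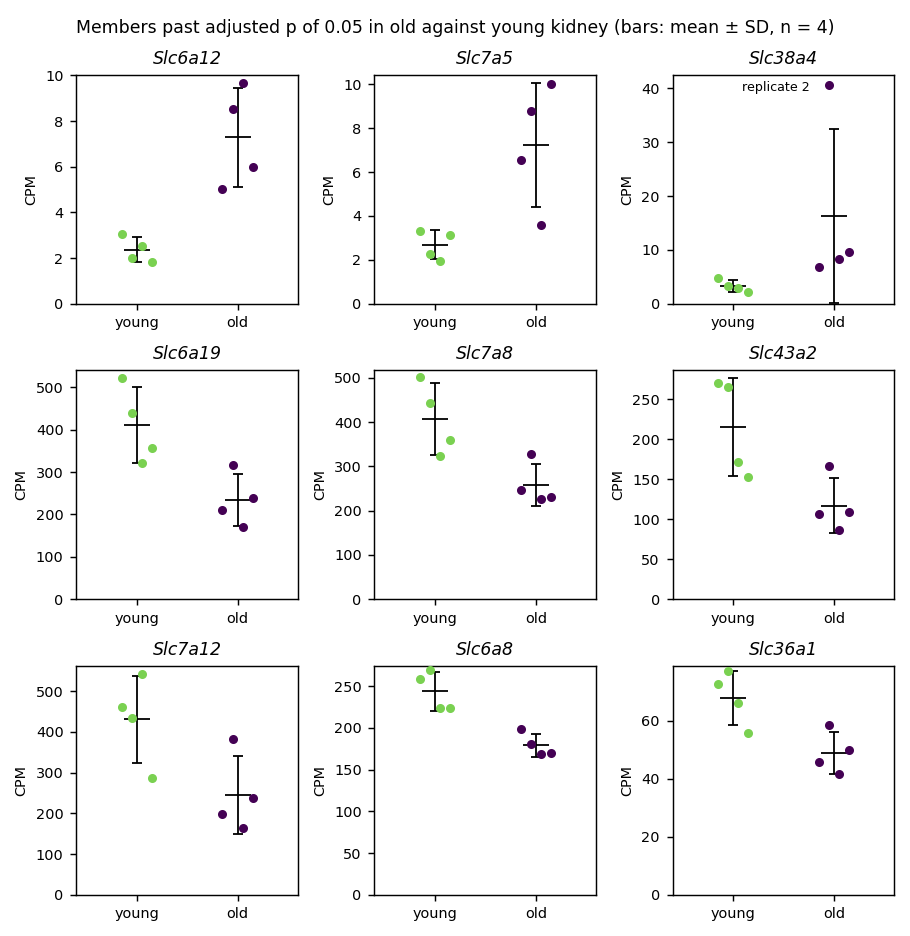
CPM of the 9 members past an adjusted p of 0.05 in old against young kidney, 1 point a library, with bars for the mean ± SD (n = 4) and each axis from 0. Slc6a12, Slc7a5 and Slc38a4 are higher in old kidneys and the other 6 lower, and old replicate 2 stands alone at 40.6 CPM of Slc38a4.

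The members with the highest kidney levels did not move together. The apical heterodimer Slc3a1 (log2 fold change 0.04) and its partner Slc7a9 (151.2 ± 13.6 CPM in old against 167 ± 5.09 CPM in young kidney, SD, n = 4) did not pass the test, nor did Slc1a1 (-0.13 ± 0.10, adjusted p = 0.431). Slc6a18 had 989 ± 81.1 CPM in young and 1253 ± 85.0 CPM in old kidneys (SD, n = 4), with 0.31 ± 0.12 and adjusted p = 0.119. Of the 7 members grouped as apical carriers of the kidney, all of which were tested, 1 fell and 6 did not pass. Of the 8 grouped as basolateral or heteromeric, 7 were tested, of which Slc7a5 rose, Slc7a8 and Slc43a2 fell and 4 did not pass. Summed over a family, Slc7 had 1450 ± 242 TPM in young and 936 ± 283 TPM in old kidney, with overlap, Slc6 had 1347 ± 87.2 and 1403 ± 208 TPM, with overlap, and Slc38 had 226 ± 12.9 and 284 ± 35.6 TPM, without overlap (SD, n = 4). These sums were not tested.

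Markers of the whole proximal tubule were lower in old kidneys, and those of its straight part overlapped between the ages. The sum of the 8 markers, none of them at 0, was 12555 to 15970 CPM in young kidneys and 9123 to 10948 CPM in old kidneys, and in each old kidney the markers stood at 66.9% to 78.2% of their young level. The 4 markers of the straight part summed to 901 to 1065 CPM in young and 695 to 1135 CPM in old kidneys. The sum of 6 macrophage markers was 132 to 154 CPM in young and 620.1 to 1425 CPM in old kidneys, and that of 6 B and plasma cell markers was 170.2 to 215 CPM and 595 to 774 CPM. Their part in the results on the members was not tested. In bulk tissue, fewer cells of a type and less RNA per cell cannot be told apart.

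In liver 1 member rose with age. Of 12537 genes tested, 30 were members, and Slc3a1 passed both thresholds (1.69% of all genes rose past both and 0.439% fell past both) as well as the adjusted p alone (1.91% higher and 0.558% lower over all genes). The young livers had 27.8, 32.4, 34.2 and 34.3 CPM and the old livers had 132, 116, 221 and 88.4 CPM. The groups did not overlap, the young libraries lay close together and the old ones were spread, and the log2 fold change was 2.06 ± 0.29 (SE), a 4.17-fold rise, with edgeR adjusted p = 0.00711. The livers of the DMSO mice, of 20 to 21 months, had 101, 77.5, 70.0 and 71.1 CPM, which also lay above all young livers, although that series was not tested against the untreated one. On the TPM scale Slc3a1 stood at 155 TPM in old liver and 810.4 TPM in old kidney.

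Exons of Slc3a1 overlap those of Prepl on the opposite strand over 26.5% of their length, and reads were counted without regard to strand. Reads over the shared stretch could come from either gene. Each library held a separate tally of ambiguous reads outside the genes, so such reads may be missing from both counts. Prepl itself had a log2 age change of 0.80 ± 0.24 in liver with edgeR adjusted p = 0.114. No other member passed in liver. Slc38a1 had 1.98 ± 0.51 with adjusted p = 0.0729, and Slc1a5, at 1.81, 1.98, 1.21 and 1.35 CPM in young and 2.41, 4.05, 4.46 and 2.70 CPM in old livers without overlap, had 1.03 ± 0.29 with adjusted p = 0.098. DESeq2 called both of them beside Slc3a1. The 6 macrophage markers summed to 371 to 530 CPM in young and 681 to 1313 CPM in old livers. The 7 hepatocyte markers summed to 135969 to 173763 CPM in young and 87762 to 128062 CPM in old livers, and 6 pericentral hepatocyte markers to 8792 to 10262 CPM and 4213 to 8108 CPM, while 6 periportal markers overlapped between the ages. No marker of these lists was at 0, and their part in the values of the members was not tested.

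An interaction term compared the age effects of liver and kidney over 15036 genes, 43 of them members. The effects differed for 4 members by the adjusted p (1.72% of all genes). For Slc3a1 the liver effect exceeded the kidney effect by 2.06 ± 0.34 on the log2 scale (edgeR adjusted p = 0.0054), and for Slc6a12 it lay below the kidney effect, with -1.73 ± 0.33 (adjusted p = 0.0154). Slc1a5 (0.97 ± 0.23, edgeR adjusted p = 0.0463) and Slc7a7 (0.997 ± 0.243, edgeR adjusted p = 0.0483) had higher effects in liver, and with the replicate block they had adjusted p = 0.0933 and 0.0831. Slc7a7 was at 261, 279.5, 278 and 290.4 CPM in young kidneys and 233, 229, 218 and 222 CPM in old kidneys, and at 4.94, 3.12, 3.14 and 4.15 CPM in young livers and 5.90, 7.01, 7.04 and 4.85 CPM in old livers. The kidney groups did not overlap and the liver groups did.

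**Figure D4:**
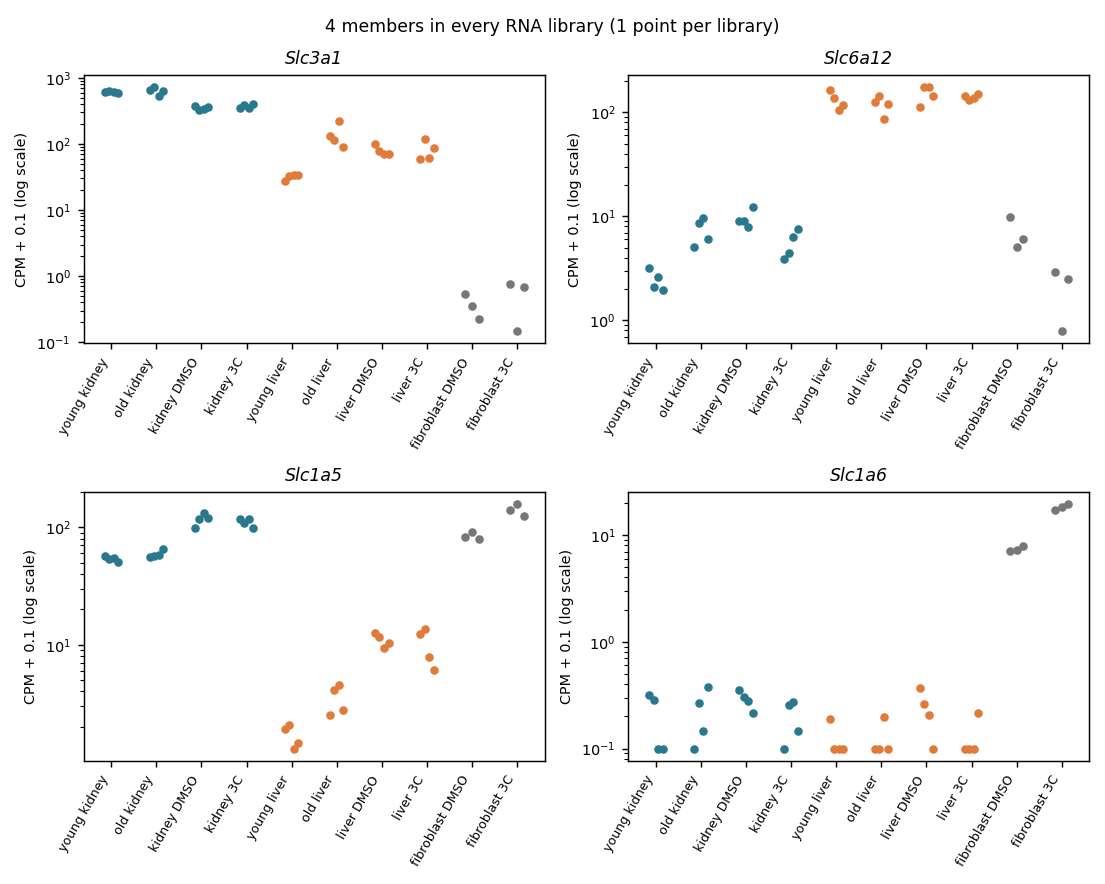
CPM + 0.1 on a log axis for Slc3a1, Slc6a12, Slc1a5 and Slc1a6 in each RNA-seq library, 1 point a library, by group. The old livers lie above the young livers in Slc3a1, the old kidneys above the young kidneys in Slc6a12, and the fibroblasts with 3C above those with DMSO in Slc1a5 and Slc1a6.

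3C was compared with DMSO in fibroblasts, kidney and liver, with the mice and cells in each pair of groups otherwise alike by their labels. In fibroblasts 36 members were tested among 13449 genes. Slc1a6 rose past both thresholds (1.23% of all genes did), Slc6a12 fell past both (0.632% of all genes did), and Slc1a5 rose by the adjusted p alone (2.43% of all genes rose and 1.78% fell by that rule). Slc1a6 was at 6.95, 7.18 and 7.78 CPM with DMSO and at 16.9, 18.1 and 19.4 CPM with 3C. The groups stood well apart, and the log2 fold change was 1.27 ± 0.15 (edgeR adjusted p = 0.00146).

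Slc1a5 was at 82.5, 90.4 and 79.9 CPM with DMSO and at 140.3, 157 and 125 CPM with 3C, without overlap, and its log2 fold change was 0.69 ± 0.12 (edgeR adjusted p = 0.0114, and 0.0771 without DMSO replicate 3 and 0.057 without 3C replicate 2). Slc6a12 was at 9.84, 4.97 and 6.00 CPM with DMSO and at 2.85, 0.687 and 2.38 CPM with 3C. These groups did not overlap either, with 3C replicate 2 the lowest, and the log2 fold change was -1.91 ± 0.43 (edgeR adjusted p = 0.0346). Without DMSO replicate 1, DMSO replicate 3 or 3C replicate 2 its adjusted p was 0.091, 0.11 and 0.0728. The sum of the macrophage markers in the fibroblast libraries was 275 to 357 CPM with DMSO and 112 to 169 CPM with 3C, and its part in these values was not tested. Slc7a5 (56.5, 92.9 and 85.7 CPM with DMSO, 51.2, 85.2 and 58.9 CPM with 3C) overlapped between the groups and did not pass.

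In kidney 45 members were tested among 14974 genes and edgeR called none (0.0% of all genes), with 3 members at an unadjusted p under 0.05 (11.9% of all genes) and none called by DESeq2. The smallest p among the members was that of Slc6a12, at 8.92, 9.03, 7.81 and 12.3 CPM with DMSO and 3.77, 4.32, 6.23 and 7.42 CPM with 3C. The groups did not overlap, and the log2 fold change was -0.77 ± 0.22 with edgeR adjusted p = 0.238. The macrophage markers summed to 542 to 617 CPM with DMSO and 323 to 530 CPM with 3C. In liver 33 members were tested among 13042 genes, with none called by edgeR (0.0% of all genes) or DESeq2 and none at an unadjusted p under 0.05 (3.34% of all genes). The 3C effect did not pass as different between kidney and liver for any of 48 members tested (0.0% of all 15526 genes by edgeR, and none by DESeq2), with 1 member at an unadjusted p under 0.05 (3.57% of all genes).

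Other genes of amino acid handling were followed as 3 lists. In old against young kidney, 20 ATF4 targets and amino acid response genes were tested. By the adjusted p 5 rose (8.15% of all genes did) and 1 fell (3.36% of all genes). Their median log2 fold change was 0.41 beside 0.02 for all genes. Pycr1, a proline synthesis enzyme, rose by 2.77 ± 0.45 (edgeR adjusted p = 0.00434), Nupr1, a stress-induced nuclear protein, by 1.62 ± 0.27 and Ddit3, a transcription factor of the stress response, by 0.80 ± 0.22. Atf5 and Aldh18a1 also rose, and Vldlr, a lipoprotein receptor, fell by 0.78. Among members grouped as linked to ATF4, 7 of 9 were tested in this comparison and only Slc7a5 passed.

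Of 24 further amino acid transport genes and their partners, 18 were tested in kidney. Slc15a3, a peptide and histidine carrier of lysosomes in immune cells, rose with age by 2.30 ± 0.40 (edgeR adjusted p = 0.00593). Those that fell included Slc6a20b, by 0.46, and the mitochondrial carriers Slc25a13 and Slc25a15, by 0.36 and 0.52. Slc6a20a did not pass (0.11 ± 0.15, edgeR adjusted p = 0.655). None of 18 genes of lysosomal amino acid sensing passed in kidney by edgeR (3 at an unadjusted p under 0.05, beside 30.1% of all genes). In liver none of the 3 lists had a gene past the adjusted p (15, 18 and 17 genes tested), beside 1.91% of all genes higher and 0.558% lower. With 3C in fibroblasts 3 of 20 ATF4 and response genes fell (1.78% of all genes did), namely Chac1 (-0.84), Mthfd2 (-0.74) and Shmt2 (-0.50). The median of that list was -0.26 beside 0.01 for all genes, and Slc15a3 fell by 2.59.

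Chromatin at the start sites was read as ATAC-seq peaks within 1 kb of any annotated start of a member. A peak in all 3 libraries of the group was found for 42 of the 61 members in young kidney (61.5% of all 24534 genes), 37 in old kidney (59.5%), 34 in young liver (56.0%) and 32 in old liver (55.5%). In all 12 libraries 26 members had one (50.5% of all genes), and 6 members had none in any library (21.1%). These were Slc6a2, Slc6a11, Slc6a14, Slc7a3, Slc7a13 and Slc7a14. When peaks had to reach 5 in −log10 q, they were found in all 3 libraries for 33, 29, 18 and 19 members in the same order of groups, beside 55.0%, 52.4%, 42.5% and 43% of all genes. The lists held weak peaks, with a lowest −log10 q of 0.302 to 0.409 a library. Peaks of single members below are given without a cutoff, so a weak peak and its absence may differ little.

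A peak and its absence did not follow the RNA level in a simple way. Slc6a19, whose RNA was at most 0.272 CPM in a young liver, had peaks in all 12 libraries, with fold enrichments over the local background of 10.4, 11.4 and 8.44 in young kidney and 7.26, 10.8 and 10.5 in young liver. The kidney and liver values overlapped. Slc6a18 and Slc7a12, with the steepest RNA difference, had a peak in 3 and 4 of the 6 kidney libraries, and in 2 and none of the 6 liver libraries. Slc38a4 had one in 1 of 6 kidney and 5 of 6 liver libraries, which is the order of its RNA.

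Only 2 members had a peak in all 6 kidney and no liver library (1.07% of all genes), and both were named after their values were seen. Slc6a17, a neutral amino acid carrier of synaptic vesicles, had fold enrichments of 4.92 to 6.68 in kidney, and its RNA was at 26.0 to 33.1 CPM in young kidneys and at most 0.0453 CPM in young livers. Slc6a5, a glycine carrier of neurons, had 3.47 to 4.66 in kidney, while its RNA had 1 count over the young and 1 count over the old kidneys. These 2 genes thus shared the pattern of peaks and differed in RNA.

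At Slc3a1, the member that rose in old liver, all 6 kidney libraries had a peak over the promoter window printed above, with fold enrichments of 2.12 to 2.81, and no liver library had one over it. Within 1 kb of any of its starts, 1 young liver library (2.11) and 2 old liver libraries (2.65 and 2.23) had a peak, so the age groups overlapped. The printed Slc6a12 window had no peak in any library, although a peak stood within 1 kb of one of its annotated starts in all 6 kidney and 5 of 6 liver libraries. Its window at chr6:121343138-121343387, which held no motif, had a peak in 3 young and 2 old kidney libraries. At Slc7a11, 3 of 3 old and no young liver libraries had a peak (0.236% of all genes did), with fold enrichments of 3.20, 2.36 and 1.997. The median over all peaks of these libraries was 2.74, 2.86 and 2.90, so the Slc7a11 peaks were not strong ones. Its RNA was under 1 TPM in all groups.

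**Figure D5:**
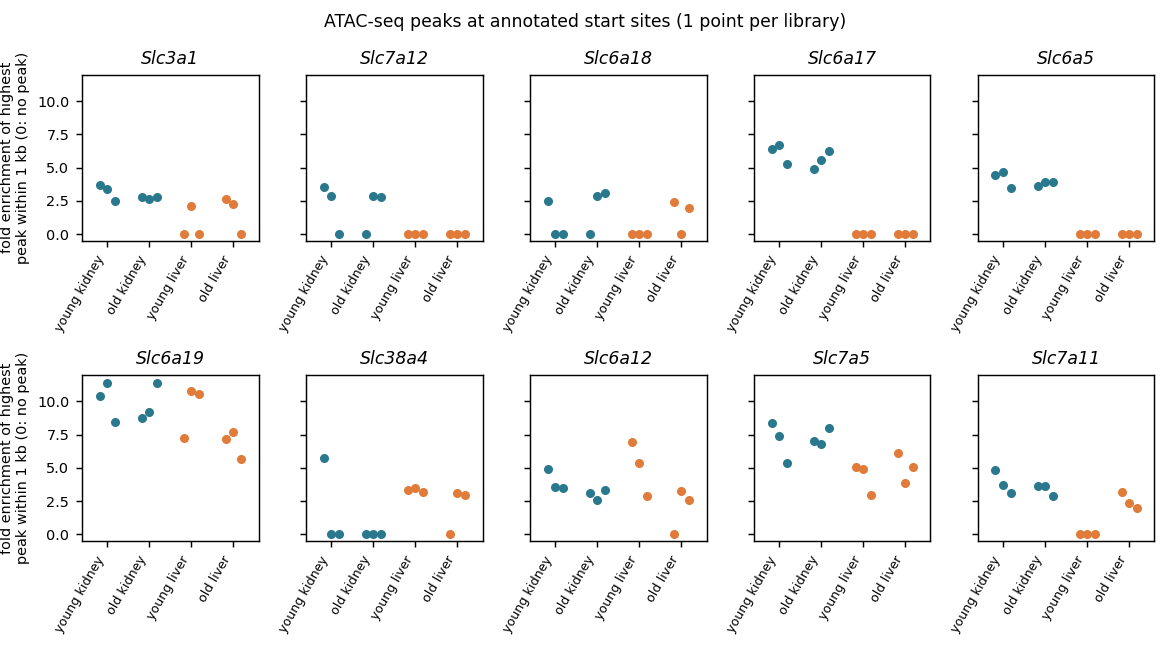
Fold enrichment of the highest ATAC-seq peak within 1 kb of an annotated start for 10 members, 1 point a library by group, with 0 for a library without a peak. Slc6a17 and Slc6a5 have peaks in the 6 kidney libraries alone, Slc6a19 in all 12, and Slc7a11 in old but not young liver.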

How the data were processed

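RNA-seq counts of 38 libraries and ATAC-seq peaks of 12 were used, with groups and replicate numbers from the labels. For RNA the authors used Trimmomatic 0.39 for trimming, HISAT2 2.2.1 with the mm10 genome for alignment, and unstranded counting in HTSeq 0.12.4. Deposited were raw counts, whole reads per gene for 24984 genes, with a tally of ambiguous reads beside the genes. Reads over exons shared by genes on opposite strands cannot be told apart by strand and may be in that tally. Slc1a1, Slc3a1, Slc6a9, Slc7a4, Slc7a7 and Slc7a10 have such a neighbor over more than 5% of their exons. Reads shared with near-identical sequence may also be missing. Multi-mapped and unaligned tallies were 0 throughout the DMSO and 3C series. In the ATAC-seq libraries the authors used Bowtie2 2.3.5.1, left out duplicate reads and ran MACS2 library by library, with reads shifted for the transposase. The deposited peak lists give fold enrichment, a ratio over the local background, and a −log10 p and −log10 q.

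The libraries of each comparison alone entered its fit, made by edgeR 4.0.16 under R 4.3.3. Genes passed filterByExpr (minimum count 10), TMM factors were used, and the test was the two-sided quasi-likelihood F test with Benjamini-Hochberg adjustment over all genes tested; SE is the log2 fold change over the square root of F. CPM used library totals without TMM. TPM used union exon lengths of GENCODE vM21, in which all 61 members and 24534 of all genes were found. Counts set the precision, with totals of 14238228 to 43704147 a library. In simulated data with 200 genes changed 4-fold the 9 fits of groups recovered 183 to 195 and the interactions 144 and 169, with 3 to 7 false calls. Figures were drawn with matplotlib 3.10.9 in Python 3.11.15.

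The members and lists were chosen with earlier results of these data known. Named in the text were members past the thresholds of an age or 3C comparison, members with a different age effect between tissues, the highest member of each family and tissue, and a fixed list of members with known roles. Other names were added after their values were seen. Alternatives were DESeq2 1.42.0, RLE factors, no filter, a mean of at least 1 CPM, the adjusted p alone, the replicate block, the longest transcript, stricter peaks, a 250 bp window and leaving out each library. Library totals and the use of shared numbers alone were added after seeing the data. Deviations of same-numbered libraries correlated above 0.1 in every pair for young kidney with young liver (0.154 to 0.576) and for kidney with liver under 3C (0.139 to 0.266), and in no other comparison. A gene of the further transport genes is not reported here.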

Additional observations from a re-analysis of the deposited data

Results flagged for a closer look

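Slc38a4 in old kidney replicate 2 stood apart from its group, at 40.6 CPM against 6.75 to 9.68 CPM in the other 3 libraries. Each of the 10 members past the adjusted p in an age comparison was examined in this way in its young and its old group, which makes 20 sets of 4 values, and chance marks about 1 in 20. The hepatocyte markers in that library stood at 3.58% of their old liver level and Slc38a4 at 4.11% of its own, and their part in the value was not tested.

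The age effect differed between liver and kidney, by the interaction test of edgeR, for Slc3a1 (2.06 on the log2 scale, liver minus kidney), Slc6a12 (-1.73), Slc1a5 (0.97) and Slc7a7 (0.997). Slc3a1 and Slc6a12 passed under all 21 alternatives, whereas Slc1a5 passed under 5 and Slc7a7 under 4.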

How the results depend on the processing

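By the adjusted p alone 9 members passed in old against young kidney, where 3 passed both thresholds. DESeq2 called 3 members in old against young liver in place of 1 and gave 10 members with a different age effect between tissues in place of 4, while RLE factors and the replicate block gave 2 each. A −log10 q of at least 5 left 18 members with peaks in young liver and 19 in old liver, in place of 34 and 32. Leaving out each library in turn gave 1 to 5 members for age in kidney (the fewest without replicate 2 of young kidney, and 5 without replicate 2 or 3 of old kidney), 1 to 3 for age in liver (3 without old liver replicate 1), 1 to 2 for 3C in fibroblasts (1 without DMSO replicate 1, DMSO replicate 3 or 3C replicate 2) and 2 to 7 for the difference in age effect (7 without old liver replicate 1, and 2 without any 1 of the young kidneys, old kidney replicate 3 or 4, young liver replicate 3 or 4, or old liver replicate 2 or 3). The cause was not tested. Shares of all genes called under these alternative fits are not given, so the counts are no result about the members. The replicate block left 2 calls for age in kidney (3 without it) and 34 for young kidney against young liver (35 without it), and moved no other count of calls by more than 1.5 times beside that of the age effect. Slc6a12 and Slc6a19 in kidney, Slc3a1 in liver and Slc1a6 with 3C passed under all alternatives run for them. No member past the adjusted p in an age or 3C comparison changed sign in that comparison. Signs of members that did not pass were not followed through all alternatives. In young kidney against young liver Slc7a5 and Slc43a3 changed sign with library totals. In old against young kidney Slc7a12 did not pass with library totals (adjusted p = 0.0928 by edgeR), the filter of 1 CPM or the replicate block, Slc6a8 and Slc38a4 did not with the block, and Slc36a1 and Slc43a2 did not with library totals. Beside leaving out libraries, 77 counts stayed within 1.5 times and 7 did not. Of the member levels, 68 of 70 leaders of a family and group stayed with the longest transcript. Depth limits the members under 1 TPM, and intervals for them were not computed.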

Other observations

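Slc6a13, a carrier of GABA and taurine, had no overlap between ages in either tissue and did not pass the test in either with all libraries. It was at 110.5, 125, 170.3 and 157 CPM in young kidneys and 255, 183, 219 and 216 CPM in old kidneys, with a log2 fold change of 0.61 and edgeR adjusted p = 0.0631. Without old kidney replicate 2 it passed, with 0.71 and adjusted p = 0.022. In young livers it was at 268, 249.96, 253 and 248 CPM and in old livers at 175, 238, 173 and 231 CPM, with -0.40 and edgeR adjusted p = 0.291.

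Slc6a15, a neutral amino acid carrier known from brain and named after its values were seen, had 65.5, 49.8, 51.6 and 149 CPM in DMSO kidneys, where replicate 4 was the high one. It had 15.1 to 22.2 CPM in young kidneys of the untreated series, which was not tested against the DMSO series.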
